A study of Mus musculus with 18 samples.

Results

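The genes described here build the bridge between the nucleus and the cytoskeleton in developing spermatids, together with the lamins that underlie it. They were chosen by name, with earlier results of these data known. They were the SUN genes Sun1, Sun2, Sun3, Sun5 and Spag4, the nesprin genes Syne1 and Syne2, Dpy19l2, and the B-type lamin genes Lmnb1 and Lmnb2. All 10 were found among the 54232 genes of the count table, and all 10 passed the filter on low counts. Messenger RNA was sequenced from round spermatids (RS), the haploid germ cells formed by meiosis, before their nuclei lengthen. RS were isolated by sedimentation through a BSA gradient from the testes of mice between 75 and 85 days old. There were 6 libraries from WT mice, 6 from KO mice, which lack the testis RNA helicase GRTH encoded by Ddx25, and 6 from KI mice. The study made the KI mice with a human GRTH gene that holds a missense mutation, and their helicase lacks its phosphorylated form. GRTH is made in Leydig cells as well as in germ cells, and the sources used here name no cell type to which either allele was restricted. Libraries were strand-specific and made from total RNA without polyA selection. Whether several animals contributed to a library was not stated in the sources used here, so a p-value measures the spread between these libraries.

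SUN proteins cross the inner nuclear membrane and nesprins, with their KASH domain, cross the outer one. The pair meets in the space between the membranes and forms the LINC complex, which passes force from microtubules and actin to the nucleus. Sun1 and Sun2 are made in many tissues, while Sun3, Sun5 and Spag4 (also called SUN4) are made mainly in the testis. In spermatids, SUN3 and SUN4 line the nucleus where the manchette, the microtubule skirt that shapes the head, is attached, and SUN5 anchors the tail to the back of the nucleus. DPY19L2 sits in the inner nuclear membrane under the acrosome and holds the acrosome to the nucleus. Loss of SUN5 is known to give headless sperm, and loss of DPY19L2 gives round-headed sperm without an acrosome.

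The count on genes lay between 18766971 and 26776555 per library. The level of a gene is its normalized CPM, which scales its count to the library total and to edgeR's TMM factor. The targeted gene Ddx25 lay between 537.4 and 606.5 CPM in WT and between 47.6 and 90.8 CPM in KO. It lay between 0.0456 and 0.518 CPM in 5 KI libraries, and at 56.8 CPM in the library labelled KI 4, which is inside the KO range and goes against its label. Reads were counted on the mouse gene, while the KI allele is a human GRTH gene, so its transcripts may go uncounted. The study reports that KI mice keep the non-phosphorylated form of the protein. The median squared difference between KO 2 and the library labelled KI 4 was 1.59 times that from counting alone, the smallest value of any pair of libraries. In 6 further pairs this index lay between 2.12 and 3.004. They were WT 1 with WT 2, WT 3 with WT 4, WT 5 with WT 6, KO 4 with KO 5, KI 1 with KI 2, and KI 3 with KI 5. It was 4.63 for the next pair, so the paired libraries may not be independent animals. The calls of the members and the counts of the gene lists were therefore also computed without the library labelled KI 4 and with these 6 pairs summed, the latter chosen for the lists after their values were seen. The sum of 10 RS markers lay between 3797 and 4539 CPM in WT against 2099 and 3887 in KO and 2202 and 3965 in KI, and each of the 10 was above 3 counts in at least 1 library of every genotype. The sum of 10 elongating spermatid markers fell from between 18139 and 26199 CPM in WT to between 2468 and 7256 in KO and between 3415 and 4922 in KI. In bulk libraries, fewer cells of a type and less RNA per cell cannot be told apart.

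Dpy19l2 was the most abundant of these genes in WT RS for its length, followed by the SUN genes restricted to the testis. In CPM per kilobase of exon (RPKM), Dpy19l2 averaged 109 ± 19.1 (SD, n = 6), above 97.7% of the 21058 genes tested. Sun5 averaged 43.4 ± 8.34 RPKM, Sun3 36.8 ± 7.36 RPKM and Spag4 24.5 ± 5.41 RPKM. The broadly made SUN genes were lower, with Sun1 at 11.7 ± 0.924 RPKM and Sun2 at 2.16 ± 0.219 RPKM. Lmnb2 lay at 18.1 ± 7.03 RPKM and Lmnb1 at 8.52 ± 0.550 RPKM. The nesprins were the least abundant per length apart from Sun2, with Syne2 at 5.05 ± 1.94 RPKM and Syne1 at 0.858 ± 0.128 RPKM. In this order the WT ranges of Sun5 and Sun3, of Sun3 and Spag4, of Spag4 and Lmnb2 and of Lmnb2 and Sun1 overlapped, and the ranges of the other neighbours did not. Within a library the order was steadier: Sun5 was above Sun3 in 5 of the 6 WT libraries, and Sun3 above Spag4, Spag4 above Lmnb2 and Lmnb2 above Sun1 in 6 of 6. RPKM divides by the summed exons of all annotated transcripts, which reach 40491 bases for Syne1 and 26726 bases for Syne2, so a short isoform of a nesprin would appear at a low level per length. GENCODE lists 9 transcripts of Syne1 and 17 of Syne2, and gene counts do not separate them.

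**Figure D1:**
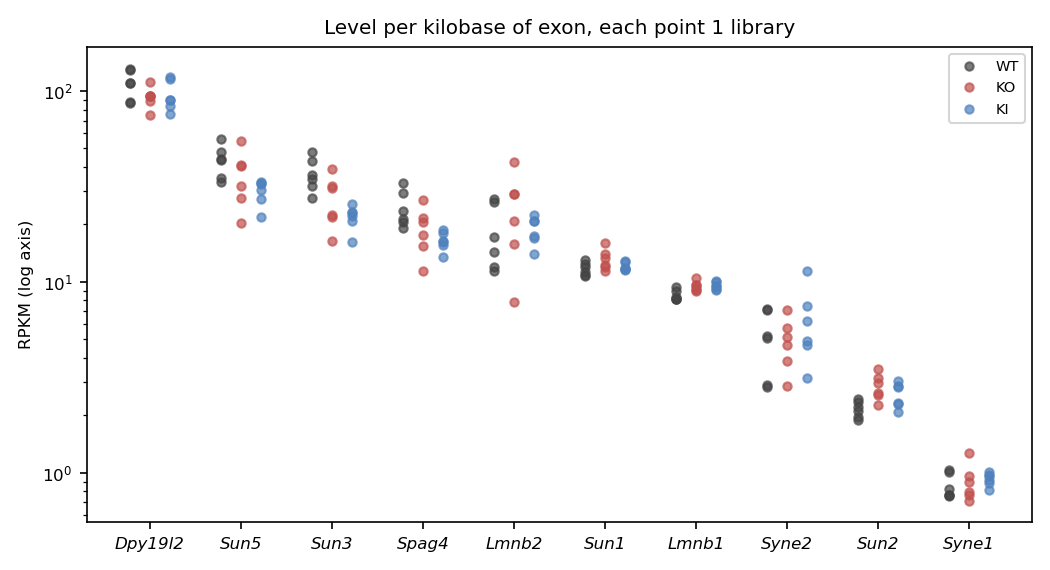
RPKM on a log axis for each gene, ordered by its mean in WT, with 1 point per library and 6 libraries each for WT, KO and KI. Dpy19l2 lies above the other genes in WT (87.0 to 131 RPKM) and Syne1 lies lowest (0.756 to 1.03 RPKM).

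Of the summed RPKM of the 5 SUN genes in WT, Sun5 made up 36.6% ± 3.37 (SD, n = 6), Sun3 30.9% ± 1.98 and Spag4 20.6% ± 1.75. Sun1 made up 10.01% ± 1.10 and Sun2 1.88% ± 0.468. The sum averaged 118 ± 20.2 RPKM in WT against 98.0 ± 26.9 in KO and 82.6 ± 9.01 in KI. The KI range of the sum (66.1 to 91.2 RPKM) lay below the WT range (94.0 to 151), while the KO range (63.6 to 139) overlapped it. In KO the share of Sun3 was 27.5% ± 1.56 (25.3% to 28.9%), wholly below that of WT (29.1% to 33.7%). In KI the share of Sun3 was 26.4% ± 1.80 and that of Sun1 14.7% ± 1.66, and the ranges of both shares lay apart from those of WT, Sun3 below and Sun1 above. These shares add to a whole, so a lower share of one gene raises the others.

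Against WT, most of these genes were not called in either mutant, and none changed beyond 1 log2 unit. A gene was called where the edgeR quasi-likelihood test for a change of any amount gave a Benjamini-Hochberg adjusted p under 0.1 over the 21058 genes tested. In KO 2 of the 10 genes were called, Sun2 higher and Sun3 lower, where 29.9% of all genes tested were called (16.4% higher and 13.5% lower). In KI 3 of the 10 were called, Sun3, Sun5 and Spag4, all lower, where 31.6% of all genes were called (16.1% higher and 15.4% lower). A KI range wholly below WT, as for these 3, was found in 7.92% of all genes tested. For both directions together, the number called was near the share of all genes in both comparisons. The 3 of 10 in KI stood above the shares of all genes called lower (15.4%) and lying wholly below WT (7.92%). With 10 genes chosen by name, this difference was not tested. None was called beyond 1 log2 unit by edgeR's glmTreat in KO or KI, where 1.73% and 1.95% of all genes were, and at an unadjusted p under 0.05 in the any-amount test there were 3 members in each comparison, where 34.2% of all genes were in KO and 35.6% in KI. The median log2 fold change of the 10 was 0.01 in KO and 0.05 in KI, against 0.03 and 0.05 over all genes tested. With the close pairs summed, 0 members were called in KO and 1, Sun3, in KI, where 15.8% and 14.8% of all genes were called. DESeq2 called 2 members in KO and 4 in KI, where it called 14.9% and 16.2% of the 43980 genes it tested. It was run without the filter on low counts, so these shares cannot be set beside the 29.9% and 31.6% of filtered genes. Without that filter edgeR called 12.8% and 13.9% of 43982 genes. The WT libraries are shared by both comparisons. Of the elongating spermatid markers above, all 10 were called lower in each mutant. Of the 10 RS markers, 0 were called higher, and 3 were called lower in KO and 4 in KI. Their median log2 fold change was -0.18 in KO and -0.39 in KI. The part of the cell make-up of the libraries in the levels of Sun3, Sun5 and Spag4 was not tested.

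The SUN genes of the testis, Sun3, Sun5 and Spag4, were the members that fell in KI RS. Stretches of 120 bases ahead of their RefSeq start sites are shown because these genes were called lower in KI, so they were chosen by their values. The windows differ in the cAMP response element. The part of this element in the levels of the genes was not tested. The sequences are from RefSeq on GRCm38.p6, 5′ to 3′ on the strand of the gene and ending at the base before the start. Capitals mark matches, on either strand, to the cAMP response element TGACGTCA or its shorter form TGACG.
Spag4: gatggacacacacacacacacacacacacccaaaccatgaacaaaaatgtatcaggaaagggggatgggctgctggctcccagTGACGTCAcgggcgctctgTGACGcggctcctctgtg
Sun3: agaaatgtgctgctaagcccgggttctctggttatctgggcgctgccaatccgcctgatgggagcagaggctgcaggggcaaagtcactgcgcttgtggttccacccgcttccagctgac
Sun5: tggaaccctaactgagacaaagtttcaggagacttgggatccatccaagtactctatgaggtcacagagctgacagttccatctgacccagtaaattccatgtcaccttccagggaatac
The stretches lie at chr2:156065093-156065212 on the plus strand for Spag4, chr11:9048992-9049111 on the minus strand for Sun3 and chr2:153871085-153871204 on the minus strand for Sun5. Cyclic AMP response elements are read by CREM, a factor that many spermatid genes respond to.

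The Spag4 window held TGACGTCA from base -37 to base -30, counted from the RefSeq start site as 0, and TGACG again from -18 to -14. A further TGACG ran from -2 past the RefSeq start and is not shown whole. GENCODE starts the Spag4 gene at base 156065175, within the stretch shown. These matches therefore lie inside the GENCODE gene and not ahead of it. The longer motif contains the shorter one on both strands, so the 2 counts overlap. TGACGTCA was found in 1.79% and TGACG in 20.8% of 32851 RefSeq windows from 250 bases before to 50 after a start. The Sun3 and Sun5 windows held neither. Windows were found for 9 of the 10 genes with 14 start sites, and Lmnb1 was not among them. Besides Spag4, TGACG was found in the windows of Sun1 and Dpy19l2, and none of these windows held GTTGCC on either strand, a stretch of the X-box that RFX factors read, which 12.5% of all windows held. A match describes the letters only.

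Sun3 (chr11:9016054-9048991, minus strand), the partner of the manchette-associated SUN4, was the one gene of the set called in both mutants. It lay between 35.8 and 61.9 CPM in WT with a median of 46.0, between 21.3 and 51.0 in KO with a median of 34.8, and between 20.999 and 33.4 in KI with a median of 29.4. Every KI library lay below every WT library, while KO 1, KO 4 and KO 5 were inside the WT range. Sun3 fell in KI with a log2 fold change of -0.75 (SE 0.18, edgeR adjusted p = 0.00333) and in KO with a log2 fold change of -0.44 (SE 0.18, edgeR adjusted p = 0.0817). Without the library labelled KI 4 the KI value was -0.74 (SE 0.19, edgeR adjusted p = 0.0078). The KO call was lost on leaving out any one of WT 1, WT 2, WT 5, KO 2, KO 3 or KO 6, with edgeR adjusted p between 0.113 and 0.197. With the close pairs summed, KI kept the call (-0.71, edgeR adjusted p = 0.0713), and KO did not (-0.49, edgeR adjusted p = 0.196). With the pairs summed and the library labelled KI 4 left out, the KI value was -0.66 (edgeR adjusted p = 0.147). The 3 genes whose centred log2 CPM over the 18 libraries was most like that of Sun3 were Smap1, Syce3 and Dnajb7, with root mean square differences of 0.11, 0.11 and 0.12 log2 units against a median of 0.55 over all other genes tested.

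Spag4 (chr2:156065175-156070617, plus strand) encodes SUN4 and had the same order of genotypes. Its level lay between 93.0 and 158 CPM in WT with a median of 109, between 55.4 and 130 in KO with a median of 92.0, and between 65.5 and 90.6 in KI with a median of 78.7. All KI libraries were below all WT libraries, and 3 KO libraries, KO 1, KO 4 and KO 5, reached into the WT range. Spag4 fell in KI with a log2 fold change of -0.58 (SE 0.17, edgeR adjusted p = 0.0162). In KO its log2 fold change was -0.37 (SE 0.17, edgeR adjusted p = 0.124), which did not pass. Without KO 1, the highest KO library, the KO value was -0.50 and passed (edgeR adjusted p = 0.031). It also passed without WT 3 (-0.42, edgeR adjusted p = 0.078) and without WT 6 (-0.44, edgeR adjusted p = 0.0662). The KI call was lost with the close pairs summed (-0.52, edgeR adjusted p = 0.193).

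Sun5 (chr2:153856188-153871084, minus strand), whose product anchors the tail, lay between 41.2 and 68.8 CPM in WT with a median of 54.2. It lay between 25.0 and 67.5 CPM in KO with a median of 44.4, and between 27.0 and 41.1 in KI with a median of 38.9. The highest KI library (KI 2, at 41.1) and the lowest WT library (WT 6, at 41.2) nearly met, and KO spanned most of both ranges. Sun5 fell in KI with a log2 fold change of -0.54 (SE 0.19, edgeR adjusted p = 0.0365). In KO its log2 fold change of -0.27 (SE 0.19, edgeR adjusted p = 0.334) did not pass. Without KO 1 the KO value was -0.43 (edgeR adjusted p = 0.0804), and with the close pairs summed the KI call was lost (-0.49, edgeR adjusted p = 0.265). Without the library labelled KI 4 alone, the KI values of Sun5 and Spag4 were -0.58 and -0.60 (edgeR adjusted p = 0.041 and 0.0204).

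**Figure D2:**
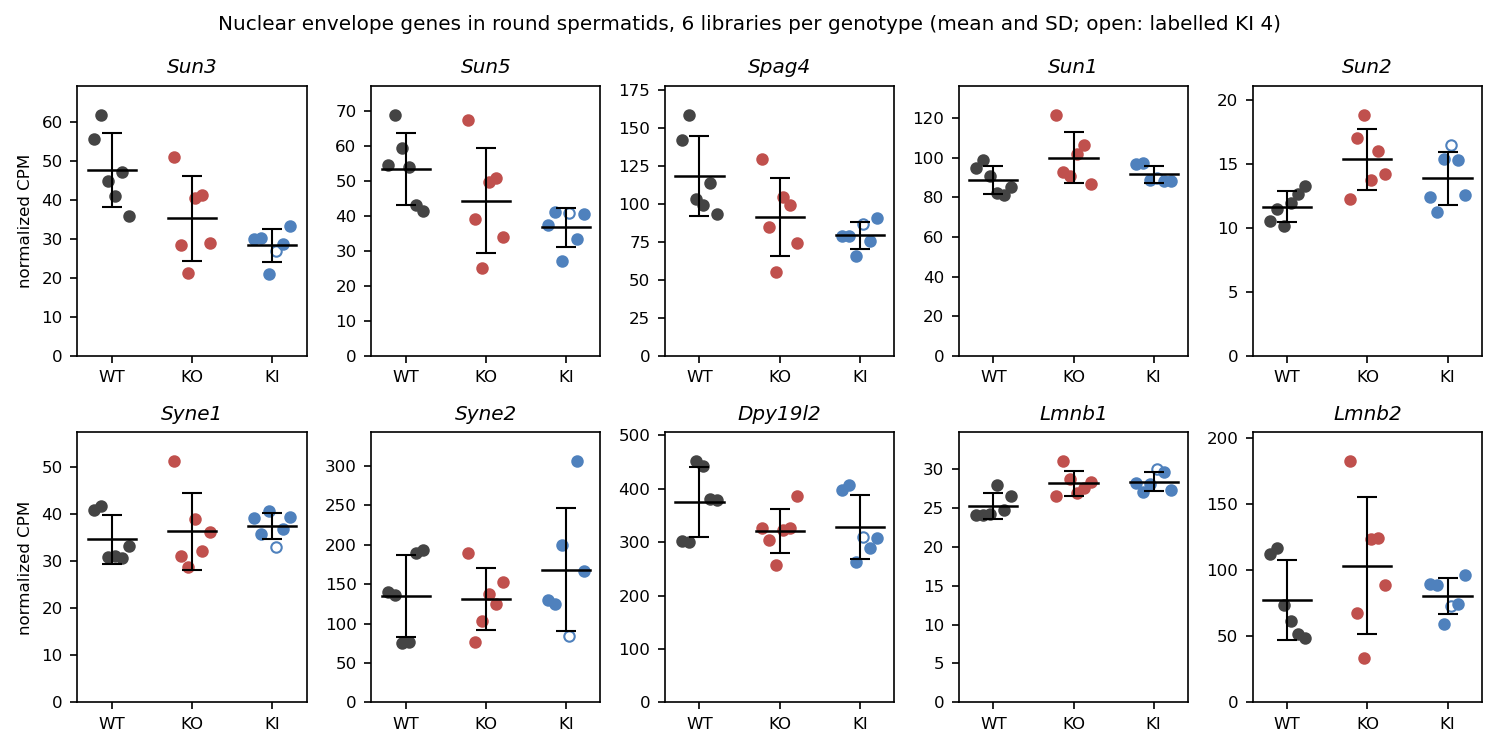
Normalized CPM of each gene by genotype, with 1 point per library, a horizontal line at the mean and bars of 1 SD (n = 6), the library labelled KI 4 drawn open, and libraries 1 to 6 from left to right. Sun3, Sun5 and Spag4 lie lower in every KI library than in any WT library, while the KO libraries overlap WT.

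Sun1 and Sun2, the broadly made SUN genes, were not called lower in either mutant. Sun2 (chr15:79724070-79742536, minus strand) was low throughout, between 10.2 and 13.3 CPM in WT with a median of 11.7, 12.2 and 18.9 in KO with a median of 15.1, and 11.2 and 16.5 in KI with a median of 13.9. Every KO library except KO 1 was above every WT library, and the KI libraries overlapped WT. Sun2 rose in KO with a log2 fold change of 0.40 (SE 0.13, edgeR adjusted p = 0.0267), and its KI value was 0.25 (SE 0.13, edgeR adjusted p = 0.163). The KO call held with any single library left out and was lost with the close pairs summed (0.41, edgeR adjusted p = 0.181) and with no filter on low counts (edgeR adjusted p = 0.1). The KI value passed without WT 6 (edgeR adjusted p = 0.0965) and without KI 2 (edgeR adjusted p = 0.092). Of 7 Leydig cell markers, 6 were tested and all 6 were called higher in KO and in KI. The sum of the 7 lay between 9.83 and 19.7 CPM for WT, 29.9 and 52.1 for KO and 13.5 and 66.2 for KI. No Leydig marker was at 3 counts or fewer in every library of a genotype. Of these markers Lhcgr (median 0, highest 0.194 CPM) and Cyp11b1 (0.0459 to 0.189 CPM) were near the floor in WT. Endothelial marker sums lay between 17.1 and 30.2 CPM in KO and 20.7 and 28.8 in KI against 11.4 and 18.3 in WT. Of 5 endothelial markers tested, 2 were called higher and 0 lower in each mutant. Their median log2 fold change was -0.08 in KO and 0.09 in KI. Spermatogonium marker sums overlapped, between 58.3 and 71.7 CPM in WT, 64.8 and 107 in KO and 59.8 and 113 in KI. Of 9 spermatogonium markers tested, 3 were called higher in KO and 2 in KI, and 0 lower. Sertoli markers went the other way: of 9 tested, 0 were called higher, and 2 were called lower in KO and 3 in KI. Of 4 peritubular myoid markers tested, 2 were called higher and 1 lower in KO, and 1 higher and 1 lower in KI. Of 7 macrophage markers tested, 2 were called higher and 1 lower in KO, and 3 higher and 1 lower in KI. The part of these markers in the level of Sun2 was not tested.

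Sun1 (chr5:139200637-139249840, plus strand) lay between 81.3 and 98.6 CPM in WT with a median of 87.9, between 86.9 and 121 in KO with a median of 97.1, and between 88.2 and 97.4 in KI with a median of 89.2. Only KO 1, KO 4 and KO 5 exceeded the highest WT library. Its log2 fold changes were 0.17 (SE 0.10, edgeR adjusted p = 0.25) in KO and 0.04 (SE 0.10, edgeR adjusted p = 0.806) in KI. The antisense gene 4930520M14Rik, which shares 302 exon bases with Sun1 on the opposite strand, averaged 2.13 ± 0.479 CPM in WT against 0.417 ± 0.194 in KO and 0.313 ± 0.139 in KI (SD, n = 6), and no mutant library reached the WT range. It fell in KO with a log2 fold change of -2.32 (SE 0.30, edgeR adjusted p = 5.75e-06) and in KI with a log2 fold change of -2.74 (SE 0.31, edgeR adjusted p = 8.33e-07), beyond 1 log2 unit in both (glmTreat adjusted p = 0.00994 and 7.96e-04). Counting was by strand, so reads of Sun1 and of this gene were kept apart as far as the strand of the library allows. Other members have overlapping genes on the opposite strand as well. Gm11992, which shares 123 exon bases with Sun3, was not called in KO (0.06, edgeR adjusted p = 0.845) or KI (0.28, edgeR adjusted p = 0.24), and Gm16575, which shares 147 with Sun2, stayed below 1.33 CPM and was not called in either.

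The nesprins make the outer side of the bridge, and neither was called. Syne1 (chr10:5020917-5551482, minus strand) lay between 30.6 and 41.8 CPM in WT with a median of 32.1, 28.9 and 51.2 in KO with a median of 34.1, and 33.0 and 40.7 in KI with a median of 38.0. The genotypes overlapped throughout, with log2 fold changes of 0.07 (SE 0.13, edgeR adjusted p = 0.785) in KO and 0.11 (SE 0.13, edgeR adjusted p = 0.602) in KI. Syne2 (chr12:75818134-76110926, plus strand) lay between 74.9 and 193 CPM in WT with a median of 138, 76.2 and 190 in KO with a median of 131, and 83.9 and 306 in KI with a median of 149. Its log2 fold changes were -0.05 (SE 0.28, edgeR adjusted p = 0.937) in KO and 0.32 (SE 0.28, edgeR adjusted p = 0.464) in KI.

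Syne2 varied within a genotype more than any comparison of genotypes moved it. The highest library was 2.58 times the lowest in WT, 2.49 times in KO and 3.65 times in KI. In WT its level followed the close pairs, with 139.6 and 136.4 CPM in WT 1 and WT 2, 74.9 and 76.7 in WT 3 and WT 4, and 189.6 and 193.1 in WT 5 and WT 6. KI 1 and KI 2 were likewise near each other (130.4 and 124.6 CPM), whereas KI 3 and KI 5 were not (200.1 and 305.9). The library labelled KI 4 (83.9 CPM) was the lowest of KI and near KO 2 (76.2 CPM), the lowest of KO.

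Dpy19l2 (chr9:24557047-24696293, minus strand) lay between 299.5 and 451 CPM in WT with a median of 379.6, 258 and 386 in KO with a median of 325, and 262 and 408 in KI with a median of 308. In WT the level again followed the close pairs, with WT 1 and WT 2 lowest and WT 3 and WT 4 highest, and only 1 KO library (KO 3) and 2 KI libraries (KI 3 and KI 5) lay below the WT range. Its log2 fold changes of -0.23 (SE 0.14, edgeR adjusted p = 0.281) in KO and -0.19 (SE 0.14, edgeR adjusted p = 0.368) in KI did not pass. Cypt4, a gene that lies within Dpy19l2 on the opposite strand and shares no exon base with it, averaged 122 ± 15.03 CPM in WT and 93.1 ± 19.6 in KI (SD, n = 6) and was called lower in KI (log2 fold change -0.39, SE 0.16, edgeR adjusted p = 0.085). In KO its log2 fold change was -0.16 (SE 0.16, edgeR adjusted p = 0.561).

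The B-type lamins form the meshwork under the inner membrane, and here they differed in how much they varied. Lmnb1 (chr18:56707813-56753424, plus strand) lay between 24.02 and 27.9 CPM in WT with a median of 24.4, 26.6 and 30.9 in KO with a median of 27.9, and 27.0 and 30.0 in KI with a median of 28.2. The mutant libraries stood mostly above WT, but WT 4 (27.9 CPM) lay within both mutant ranges. The log2 fold changes of Lmnb1 were 0.16 (SE 0.09, edgeR adjusted p = 0.208) in KO and 0.17 (SE 0.09, edgeR adjusted p = 0.167) in KI. The KI value passed with DESeq2 (0.18, DESeq2 adjusted p = 0.0605) and without WT 6 (0.22, edgeR adjusted p = 0.0984). The coefficient of variation of Lmnb1 was 6.46% in WT, 5.66% in KO and 4.32% in KI, where the median over all genes tested was 20.6%, 21.7% and 25.4%.

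Lmnb2 (chr10:80901203-80918245, minus strand), of which a shorter germ cell form is known, lay between 49.1 and 117 CPM in WT with a median of 67.8, 33.6 and 182 in KO with a median of 106, and 59.7 and 96.2 in KI with a median of 82.0. The highest KO library (KO 1) was 5.44 times the lowest (KO 3), and KO spanned the whole WT range. Its log2 fold changes were 0.41 (SE 0.29, edgeR adjusted p = 0.343) in KO and 0.05 (SE 0.29, edgeR adjusted p = 0.931) in KI. Without KO 3 the KO value was 0.60 and passed (edgeR adjusted p = 0.0838). KO 1 was highest and KO 3 lowest of the KO libraries in Sun3, Sun5 and Spag4 as well. The same libraries had the highest and lowest level of Ddx25 among KO (90.8 and 47.6 CPM).

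**Figure D3:**
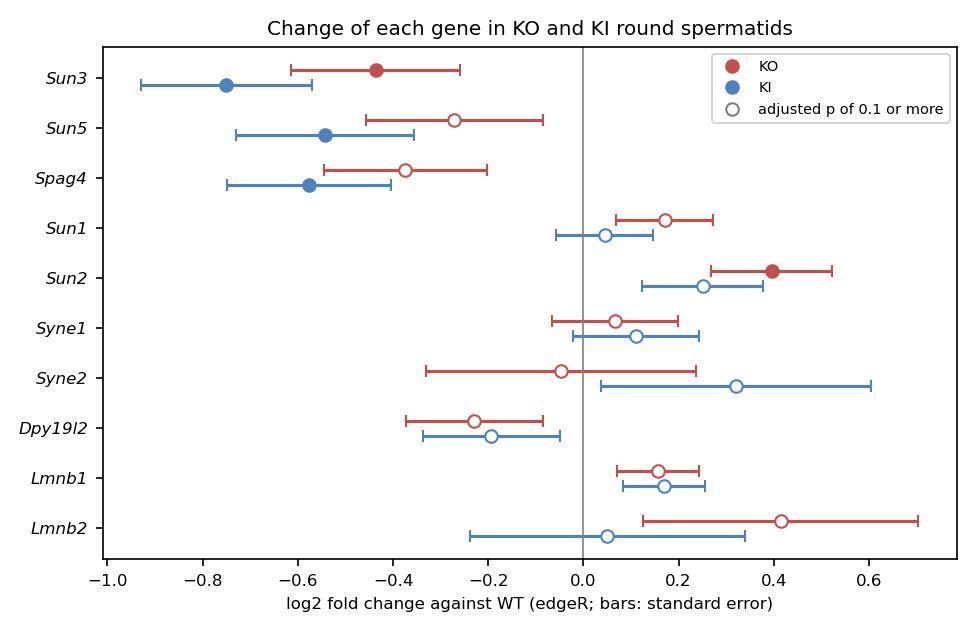
Log2 fold change against WT of each gene in KO (red) and KI (blue) round spermatids, with bars of 1 standard error from edgeR, drawn filled where the adjusted p was under 0.1. The filled points are Sun3 and Sun2 in KO, and Sun3, Sun5 and Spag4 in KI at -0.75, -0.54 and -0.58.

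Between the mutants, 0 of the 10 genes were called by edgeR in KI against KO, 0 had an unadjusted p under 0.05 and DESeq2 called 0. Over all genes edgeR called 0.0997% and DESeq2 0.193%. Without the library labelled KI 4, edgeR called 0 members and 111 of all genes (0.522%), and with the close pairs summed 0 members and 0.00434% of all genes. The 95% interval of the difference comes from the main fit, which took all 18 libraries as independent and kept the one labelled KI 4. It is too narrow if the close pairs are not independent. For Sun3 the log2 difference of KI minus KO was -0.31, with an interval from -0.69 to 0.07. It was -0.27 (-0.67 to 0.13) for Sun5 and -0.20 (-0.57 to 0.16) for Spag4. The interval was narrowest for Lmnb1 (-0.17 to 0.19) and widest for Lmnb2 (-0.98 to 0.25) and Syne2 (-0.24 to 0.97). The differences without the library labelled KI 4 were -0.30 for Sun3, -0.31 for Sun5, -0.23 for Spag4 and 0.50 for Syne2. With the pairs summed they were -0.22, -0.17, -0.10 and 0.31. Their SEs were then 0.21, 0.23, 0.21 and 0.32, against 0.18, 0.19, 0.17 and 0.28 in the main fit.

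Related genes of the nuclear envelope and of its attachments were called in both directions. The counts of the lists that follow stand beside 16.4% of all genes called higher and 13.5% lower in KO, and 16.1% higher and 15.4% lower in KI. With the close pairs summed those shares were 15.8% in KO and 14.8% in KI for both directions together. Of 5 genes listed as other LINC and KASH genes, 3 passed the filter on low counts. The sources used here do not show whether calmin, the membrane protein that Clmn encodes, holds a KASH domain. Clmn fell in both mutants. It averaged 329 ± 55.0 CPM in WT against 52.8 ± 28.9 in KO and 38.5 ± 6.92 in KI (SD, n = 6), with no overlap. Its log2 fold changes were -2.64 (SE 0.29, edgeR adjusted p = 5e-07) in KO and -3.10 (SE 0.29, edgeR adjusted p = 5.43e-08) in KI. The other 2, Syne3 and the meiotic nesprin Ccdc155 (KASH5), were not called.

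Among 20 genes of the inner nuclear membrane, lamina and LEM domain family, 7 were called higher and 1 lower in KO, and 6 higher and 1 lower in KI, with medians of 0.16 and 0.18. That is 8 and 7 of 20, against 29.9% and 31.6% of all genes. In this list Narf, which encodes a protein that binds prenylated prelamin A, rose by 0.48 and 0.54 log2 units in KO and KI (edgeR adjusted p = 0.01 and 0.00358). Icmt, the methyltransferase that finishes prenylated proteins such as the B-type lamins, rose by 0.33 and 0.40 (edgeR adjusted p = 0.0262 and 0.0071). The torsinA partners parted: Tor1aip2 (LULL1) rose by 0.32 and 0.39 (edgeR adjusted p = 0.0198 and 0.00424), while the log2 fold changes of Tor1aip1 (LAP1) were -0.39 and -0.59 (edgeR adjusted p = 0.0531 and 0.00424). Summing the close pairs left 0 of the 20 called in KO and 2 in KI, Narf (0.53, edgeR adjusted p = 0.0969) and Tor1aip1 (-0.53, edgeR adjusted p = 0.0997).

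Of 14 genes of the Dpy19 family and of acrosome attachment, 1 was called higher and 2 lower in each mutant, or 3 of 14 where 29.9% and 31.6% of all genes were called. Fam209, whose product partners DPY19L2 at the nuclear envelope, averaged 144 ± 36.6 CPM in WT against 93.0 ± 30.4 in KO and 74.1 ± 10.005 in KI (SD, n = 6). Its log2 fold changes were -0.63 (edgeR adjusted p = 0.0228) and -0.96 (edgeR adjusted p = 9.53e-04), and the KI libraries lay below WT without overlap. Spata46, a nuclear envelope gene of spermatids, had log2 fold changes of -0.46 and -0.61 (edgeR adjusted p = 0.0528 and 0.00914). Gopc, a Golgi gene needed for acrosome formation, rose by 0.47 and 0.45 (edgeR adjusted p = 0.00415 and 0.00468), with every mutant library above WT. Fam209 and Gopc kept their calls with the close pairs summed, and Spata46 did not (edgeR adjusted p = 0.143 in KO and 0.128 in KI).

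The genes that couple head and tail, where SUN5 acts, had the lowest median of the 6 lists. Of 12 genes, 0 were called higher and 7 lower in KO, and 0 higher and 8 lower in KI, with median log2 fold changes of -0.57 and -0.62, where 13.5% and 15.4% of all genes were called lower. Oaz3, an antizyme gene of spermatids, went from 1158 ± 202 CPM in WT to 226 ± 57.8 in KO and 201 ± 32.0 in KI (SD, n = 6), or -2.36 and -2.52 log2 units (edgeR adjusted p = 4.43e-09 and 1.25e-09). Odf1, an outer dense fibre gene, had log2 fold changes of -1.86 and -1.95 (edgeR adjusted p = 1.2e-07 and 4.94e-08). Pmfbp1, whose product works with SUN5 at the coupling apparatus, lay between 246 and 552 CPM in WT and between 29.3 and 59.0 in KI. In KO it had a median of 56.2 but reached 450.4 CPM in 1 library, and its log2 fold changes were -1.63 (SE 0.51, edgeR adjusted p = 0.0238) in KO and -2.94 (SE 0.54, edgeR adjusted p = 3e-04) in KI. In the fit of summed pairs 6 of the 12 were called in KO, without Pmfbp1 (-1.53, edgeR adjusted p = 0.181), and 7 in KI. Elongating spermatid markers fell as well, by the sums given above, but Odf1 is in both lists. The part of elongating spermatids in the levels of the head-tail genes was not tested.

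Among 33 nuclear pore genes, 6 were called higher and 4 lower in KO, and 6 higher and 5 lower in KI, with medians of 0.07 and 0.09. That is 10 and 11 of 33, near the 29.9% and 31.6% of all genes called. The scaffold gene Nup107 rose from 22.6 ± 4.85 CPM in WT to 43.9 ± 6.52 in KO and 42.8 ± 7.14 in KI (SD, n = 6), or by 0.96 and 0.92 log2 units (edgeR adjusted p = 6.21e-05 and 8.23e-05). Nup35, a gene of the inner ring, went from 68.4 ± 13.2 CPM to 33.1 ± 3.24 and 34.6 ± 5.07, with log2 fold changes of -1.05 and -0.98 (edgeR adjusted p = 3.49e-06 and 7.02e-06). Nup210, a membrane nucleoporin, rose by 0.53 and 0.57 log2 units and Pom121l2 by 0.51 and 0.58. Nup37 fell by 0.63 in KO and 0.62 in KI, and Nup98 fell by 0.46 in both. Summing the close pairs left 5 of the 33 called in KO and 5 in KI, among them Nup107, Nup35 and Pom121l2 in both, while Nup37 and Nup98 lost the call in both and Nup210 in KO (edgeR adjusted p between 0.112 and 0.186). Spermatocyte markers overlapped between genotypes, in their sums, which lay between 1296 and 1699 CPM in WT against 1486 and 1867 in KO and 1465 and 1946 in KI. Single markers were called, 4 of 10 higher and 2 lower in KO and 3 higher and 1 lower in KI. Sycp3 of the meiotic chromosome axis lay at 40.4 to 73.0 CPM in WT against 85.4 to 114 in KO and 82.4 to 115 in KI. Meiob and Spo11 went the other way, with means of 10.2 and 85.8 CPM in WT against 7.40 and 62.7 in KO and 8.23 and 66.5 in KI. Sycp3, Meiob and Spo11 were picked after their values were seen. The part of spermatocytes in the levels of the pore genes was not tested.

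Of 18 motor and actin partners of nesprins, 1 was called higher and 4 lower in KO, and 3 higher and 4 lower in KI, or 5 and 7 of 18 where 29.9% and 31.6% of all genes were called. Dync1li1, a light intermediate chain of dynein, rose by 0.56 and 0.44 log2 units (edgeR adjusted p = 3.69e-04 and 0.00281). Pafah1b1 (LIS1), a dynein regulator, went from 242 ± 29.4 CPM in WT to 148 ± 39.1 in KO and 144 ± 31.3 in KI (SD, n = 6), or -0.71 and -0.75 log2 units (edgeR adjusted p = 0.00401 and 0.00225). The kinesin light chain gene Klc3 had log2 fold changes of -0.68 and -0.73, and the kinesin heavy chain gene Kif5c of -0.43 and -0.65. These 4 genes were the ones called in the fit of summed pairs, in KO and in KI. Without the library labelled KI 4, the numbers called in KI were 6 of 20 for the inner membrane list, 3 of 14 for the acrosome list, 8 of 12 for head-tail coupling, 9 of 33 for the pore and 7 of 18 for the motors. In KI against KO, edgeR called 0 genes in every one of these lists, and at an unadjusted p under 0.05 there was 1 in the head-tail list, 1 among the motors and 0 in the others.

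**Figure D4:**
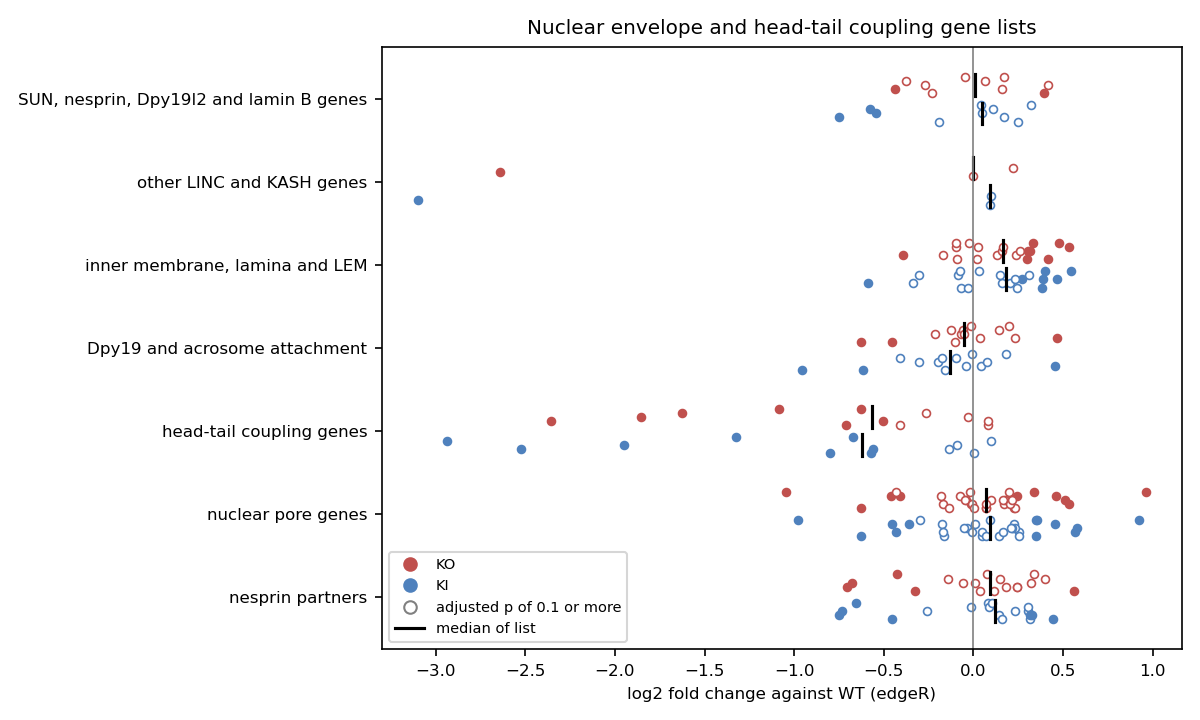
Log2 fold change against WT of each tested gene, by list, in KO (red) and KI (blue), filled where the adjusted p was under 0.1, with a black bar at the median of the list. Points are spread vertically only to separate them. The members lie between -0.75 and 0.41, while Clmn and the head-tail coupling genes extend to -3.10 and -2.94.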

How the data were processed

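Messenger RNA of RS was measured in 18 libraries, 6 per genotype, grouped by the genotype and replicate number in the labels. The authors used cutadapt 3.4 to trim reads, aligned them to GRCm38 with STAR 2.7.8a and counted fragments by strand on GENCODE M18 genes with featureCounts of Subread 2.0.1, and they deposited the raw counts of 54232 genes, which were used without change. Bowtie2 is also named in the submitters' processing notes. Counts were analysed in R 4.3.3 with edgeR 4.0.16, limma 3.58.1 and DESeq2 1.42.0. The filter filterByExpr left 21058 genes, counts were scaled with TMM factors (0.915 to 1.10), and genotype was fitted in a single quasi-likelihood model of the 18 libraries. Changes of any amount were tested with glmQLFTest and changes beyond 1 log2 unit with glmTreat, each with Benjamini-Hochberg adjustment and a threshold of 0.1, and the procedure was tested on simulated data. Up to 3 counts of a gene in a library counted as the floor. Intervals and floors cover the spread of libraries or counting error only, since no molecular identifiers were named and marked duplicates were kept.

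The members and gene lists were chosen with earlier results of these data known. The text names all members, Ddx25, genes that overlap a member, from each list at most the 3 largest rises and 3 largest falls among genes called in both mutants, and the 3 genes most like a member called in both. A few cell type markers are named besides, picked after their values were seen. Symbols, exons and overlaps came from GENCODE M21, also on GRCm38, and promoter windows from RefSeq (GRCm38.p6). Listed names absent from that annotation were matched through RefSeq synonyms. Alternatives were DESeq2, other size factors (RLE and upper quartile), no filter or at least 10 counts in every library, the replicate number as a block, a fit restricted to the genotypes under comparison, a threshold of 0.05, close pairs summed, and each library left out. Figures were drawn with matplotlib 3.10.9 in Python 3.11.15.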

Additional observations from a re-analysis of the deposited data

Results flagged for a closer look

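The level of the targeted gene Ddx25 in the library labelled KI 4 stood far from the other KI libraries, at 56.8 CPM against 0.518 CPM for the next highest. The gap made up 0.992 of the range of the 6 libraries, above Dixon's 95% critical value for 6 samples. No library was over that value in any of the 30 groups formed by the 10 members and 3 genotypes, where chance alone would be over it in about 1 group in 20.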

How the results depend on the processing

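The direction and call of a member held in 795 of 840 values recomputed under the alternatives, 17 lost the call, 10 gained it and 18 changed sign, of which 0 were called. The number of members called in KO moved from 2 to 1 with no filter on low counts and at an adjusted p of 0.05, to 0 with close pairs summed and to 0 with close pairs summed and the library labelled KI 4 left out. It lay between 1 and 4 over fits without 1 library. The number called in KI moved from 3 to 1 with close pairs summed and to 0 with close pairs summed and the library labelled KI 4 left out, and lay between 3 and 5 over fits without 1 library, with 5 (Sun2 and Lmnb1 added) without WT 6. At an adjusted p of 0.05, 4 genes of the inner membrane list were called in KO in place of 8. With close pairs summed, chosen for the lists after their values were seen, the number called in KO moved from 8 to 0 for the inner membrane list and from 10 to 5 for the pore. In KI it moved from 7 to 2, from 11 to 5 and, for the motors, from 7 to 4. Summing leaves fewer libraries, and the cause of the other moves was not tested.

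The sign changed for values near 0. Over fits without 1 library, the log2 fold change ranged from -0.0555 to 0.127 for Syne1 and from -0.182 to 0.0820 for Syne2 in KO, and from -0.0441 to 0.204 for Lmnb2 in KI. In KI against KO it ranged from -0.0145 to 0.166 for Syne1, from -0.0354 to 0.1004 for Dpy19l2 and from -0.0067 to 0.0802 for Lmnb1.

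With the replicate number as a block, Syne2 in KO was 0.0167, Spag4 in KO was called (-0.40, edgeR adjusted p = 0.0723), making 3 members, and no other call of a member changed. Same-numbered libraries of different genotypes had correlations of their deviations between -0.50 and 0.54, with 7 of 18 above 0.1, so they share only a number. Both size factor methods and the fit of only the genotypes compared left every member on its side of the threshold. Gm16575 and 4930520M14Rik rest on 4 to 28 and 3 to 60 counts a library.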
